A study of Mus musculus with 12 samples.

Results

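The nuclear genes for the subunits of the oxidative phosphorylation complexes were followed in mouse haematopoietic stem cells (HSCs). Genes were chosen by name alone, as Nduf (a, b, c, s or v), Sdh, Uqcr, Cox4 to Cox8 and Atp5 symbols, without pseudogene names and without the Naf assembly factors. This gave 85 of the 24946 genes in the table, with 38 in complex I, 4 in complex II, 8 in complex III, 18 in complex IV and 17 in complex V. The data were bulk RNA-seq of 12 libraries in 4 groups of 3, namely *Bst2* knockout (KO) HSCs taken 24 h after mice received 100 µg of recombinant IFN-γ (interferon-γ), KO HSCs from naive mice, and wild-type (WT) HSCs from IFN-γ-treated and from naive mice. All were C57BL/6, and the HSCs of every group were sorted from bone marrow as Lineage-, c-Kit+, CD150+, CD48-, CD34- cells. *Bst2*, the gene deleted in the KO, reached at most 24.8 units in any of 6 KO libraries and at least 152 units in each of 6 WT libraries. Per the labels, cells were sorted from each mouse, but libraries are not tied to mice, so a p-value here reflects how far libraries spread, which may be technical in part. Neither the age of the mice nor the design of the knockout is stated there.

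The library titles carry codes of 3 series. R-09 holds 4 libraries, 1 of each group, R-07 holds 2 KO libraries (1 treated and 1 naive) and FL-06 holds the other 6. What a code stands for is not stated. The values are the authors' normalized read counts, called units here, and log2 levels are log2(units + 1). Library totals were 13.8 to 17.7 M units (M, mega). The depth, roughly estimated from the commonest step between low values, was 0.495 M reads in WT naive 2 and 8.77 to 52.1 M reads in the other 11 libraries, so WT naive 2 is the least precise. Only 2.34 to 4.64% of a library's values were whole multiples of that step, so the depths are uncertain. The R-09 libraries stand apart from the other 8 over much of the table, the subunits included, so treatment and genotype were compared with the code series in the model.

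In the inner mitochondrial membrane, complexes I and II pass electrons from NADH and succinate to ubiquinone, complex III passes them to cytochrome c, complex IV hands them to oxygen, and complex V (ATP synthase) uses the proton gradient to make ATP. Most subunits are encoded in the nucleus and a few in mitochondrial DNA, and only the nuclear ones were followed here, since 0 of the 13 mitochondrially encoded genes had a row in the table. Quiescent HSCs are known for a reliance on glycolysis and for a rise in respiration when they become active. NRF1, the GABPA subunit of NRF2 and YY1 are known transcription factors of many respiratory genes.

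Promoters of the subunit genes were read from RefSeq (GRCm38.p6), as the 250 bases before to 50 bases after the transcript start. All 85 symbols matched a RefSeq gene, and 68 had a promoter in the table used. A 10-base NRF1 site, a palindrome spelled out by the capitals in the sequences printed here, stood in the promoter of 5 of the 68 (7.35%) and in 1.07% of the 27025 genes with a promoter. Its shorter 8-base core, GCATGCGC, which lies within the longer site, stood in 14.7% of the subunit genes and in 3.05% of all genes. The YY1 core AAGATGGC stood in 14.7% and 3.19%, and the ETS core bound by GABPA, CCGGAAGT, in 7.35% and 4.31%. At least 1 of the 8-base motifs, on either strand, was found in 24 of 68 subunit genes (35.3%) and in 9.91% of all genes. The 27025 genes were not filtered by expression or gene type, so the subunits were not set against other expressed protein-coding genes. The 5 promoters with the full NRF1 site are printed because they span complexes I, III, IV and V. Of their genes, 4 were higher in R-09 libraries (*Ndufa11*, *Uqcrc1*, *Cox6a1* and *Atp5g2*, log2 differences from FL-06 of 1.68, 1.62, 2.92 and 2.19) and 1, *Atp5k*, was lower there (−0.46). Of all 78 subunits tested, 64 were higher and 6 lower, beside 35.6% and 32.3% of all genes. These directions thus do not set the genes with the site apart from other subunits. Capitals mark the NRF1 site, each sequence runs 5′ to 3′ on the strand of its gene, and a match is a description of letters, not a shown binding site.
Ndufa11 promoter, chr17:56717512-56717811, plus strand: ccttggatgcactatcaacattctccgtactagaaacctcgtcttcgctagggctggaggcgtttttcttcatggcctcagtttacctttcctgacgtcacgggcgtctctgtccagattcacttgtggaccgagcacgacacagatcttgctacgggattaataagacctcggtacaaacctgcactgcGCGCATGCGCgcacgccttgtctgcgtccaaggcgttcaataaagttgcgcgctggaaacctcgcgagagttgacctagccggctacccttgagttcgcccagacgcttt
Uqcrc1 promoter, chr9:108936398-108936697, plus strand: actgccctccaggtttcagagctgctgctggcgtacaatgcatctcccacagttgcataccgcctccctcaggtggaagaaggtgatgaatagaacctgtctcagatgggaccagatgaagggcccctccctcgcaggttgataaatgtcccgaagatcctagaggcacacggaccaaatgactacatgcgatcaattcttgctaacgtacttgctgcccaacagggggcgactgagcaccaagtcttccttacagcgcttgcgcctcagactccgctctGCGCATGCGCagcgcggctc
Cox6a1 promoter, chr5:115348909-115349208, minus strand: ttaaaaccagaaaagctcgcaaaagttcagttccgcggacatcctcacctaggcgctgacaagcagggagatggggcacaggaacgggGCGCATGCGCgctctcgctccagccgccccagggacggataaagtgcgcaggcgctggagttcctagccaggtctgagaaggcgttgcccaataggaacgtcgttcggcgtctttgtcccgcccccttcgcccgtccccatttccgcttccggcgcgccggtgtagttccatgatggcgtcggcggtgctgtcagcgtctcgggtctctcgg
Atp5g2 promoter, chr15:102670998-102671297, minus strand: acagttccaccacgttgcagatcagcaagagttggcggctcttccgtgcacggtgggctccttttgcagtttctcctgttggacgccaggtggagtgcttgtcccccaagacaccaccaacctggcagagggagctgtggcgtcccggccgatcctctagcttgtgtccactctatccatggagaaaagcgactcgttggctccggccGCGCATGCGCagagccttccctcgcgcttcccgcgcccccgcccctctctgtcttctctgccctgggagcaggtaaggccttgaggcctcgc
Atp5k promoter, chr5:108434350-108434649, minus strand: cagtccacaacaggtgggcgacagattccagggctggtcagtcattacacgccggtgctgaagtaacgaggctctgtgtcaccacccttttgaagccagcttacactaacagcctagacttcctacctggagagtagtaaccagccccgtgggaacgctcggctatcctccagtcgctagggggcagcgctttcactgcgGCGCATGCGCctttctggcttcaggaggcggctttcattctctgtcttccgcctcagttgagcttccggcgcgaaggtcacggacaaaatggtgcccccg

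Of the 85 genes, 78 reached at least 100 units in at least 3 libraries and were tested, with 37 of complex I, all 4 of complex II, all 8 of complex III, 12 of complex IV and all 17 of complex V. All 78 were above 0 in every library, and all 78 also met the same minimum within R-09 and within the other 8 libraries. The 7 that were not tested were *Ndufa4l2*, *Cox4i2*, *Cox6a2*, *Cox7a1*, *Cox7b2*, *Cox8b* and *Cox8c*. *Cox8b* and *Cox8c* were listed at 0 in all 12 libraries. *Ndufa4l2* (1.66 units in WT IFN-γ 3), *Cox6a2* (3.43 units in WT IFN-γ 2) and *Cox7b2* (2.29 units in WT IFN-γ 2) were above 0 in 1 library each. *Cox7a1* did not exceed 13.1 units. *Cox4i2*, the isoform of subunit 4 known from lung, had 25.1, 39.5 and 28.6 units in treated KO libraries, 12.4, 128 and 3.60 units in naive KO libraries, 51.5, 31.3 and 26.1 units in treated WT libraries, and 0, 0 and 39.0 units in naive WT libraries.

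The tissue isoforms of complex IV were thus low or at 0, other than *Cox6b2*, known from testis, at 105 to 626 units. Their ubiquitous partners *Cox4i1*, *Cox6a1*, *Cox6b1*, *Cox7a2* and *Cox8a* were all tested. Muscle marker genes summed to between 0 and 61.9 units per library.

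The mean log2 level of the tested subunits differed little between groups beside the spread within them. Over all 78 it was 10.65 ± 0.61 in treated KO HSCs, 10.61 ± 0.87 in naive KO HSCs, 10.72 ± 0.67 in treated WT HSCs and 10.70 ± 0.70 in naive WT HSCs (SD, n = 3 each). In every group the wide SD came with a single high library, the one coded R-09. The mean was 11.35 to 11.62 in the 4 R-09 libraries, 10.09 and 10.28 in the 2 R-07 libraries and 10.13 to 10.35 in the 6 FL-06 libraries. In each of the 5 complexes all 4 R-09 libraries lay above the other 8. In such bulk libraries fewer cells of a type and less RNA per cell cannot be told apart. The subunits together made up 2.10 to 2.30% of all units in R-09, 0.800 and 0.896% in R-07 and 0.830 to 0.958% in FL-06.

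**Figure D1:**
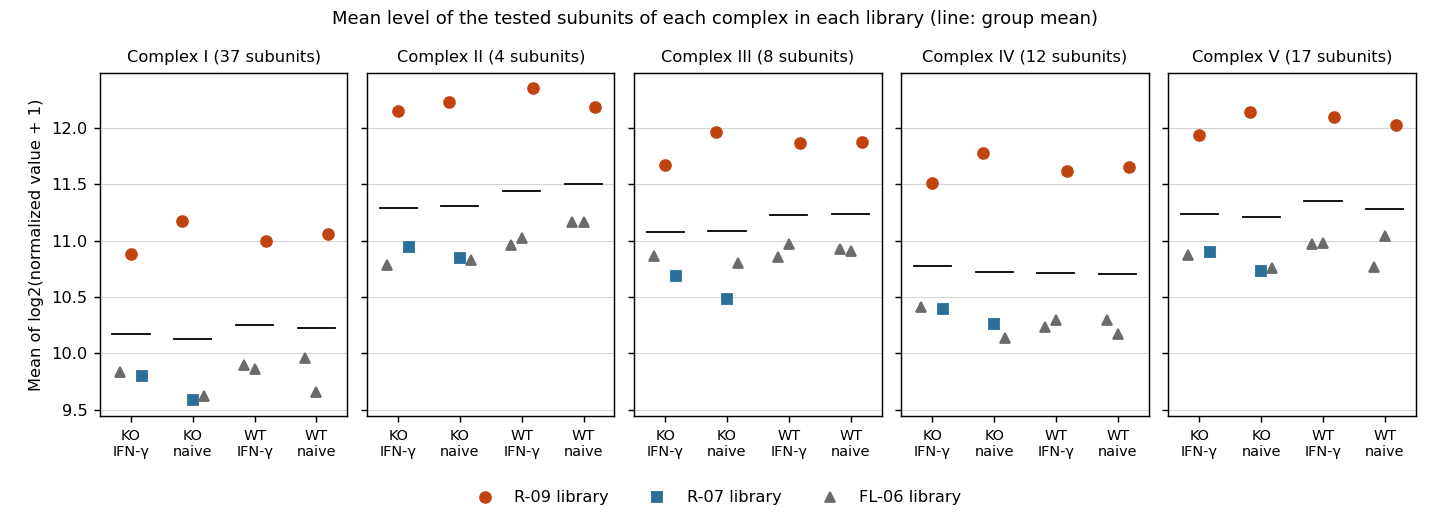
Mean log2(normalized value + 1) of the tested subunits of each complex in each of the 12 libraries, by group, with symbols for the code series and a line at the group mean. In every complex the R-09 library of each group lies above the R-07 and FL-06 libraries, while the 4 group means lie close together.

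Treated and naive HSCs were compared to see which of these genes moved with IFN-γ. In WT HSCs 0 of 78 subunits passed (limma, adjusted p under 0.05), where 0.00925% of all 10816 genes tested did, and 3 subunits (3.85%) were below an unadjusted p of 0.05, beside 7.43% of all genes. In KO HSCs 0 passed, against 0% of all genes, and 1 (1.28%) was below an unadjusted p of 0.05, beside 2.94% of all genes. Averaged over both genotypes 0 passed, against 0.0647% of all genes, and 2 (2.56%) were below an unadjusted p of 0.05, beside 6.06% of all genes. These shares were below those of all genes, but counts of 1 to 3 subunits do not set them apart from all genes. The averaged comparison also uses the same libraries as the other 2. The treatment itself was visible in the same fit, since 5 of 8 listed IFN-γ response genes were called higher on average, among them *Cd74* (invariant chain of MHC class II, log2 difference 2.16, SE 0.21, limma adjusted p = 0.00404).

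The estimates for the subunits were small. Their median log2 difference was 0.04 in KO, beside 0.01 for all genes, and 0.01 in WT, beside 0.11 for all genes. Averaged over genotypes it was 0.02, beside 0.07. No subunit had an estimate beyond 1 log2 unit in either direction, and the 95% confidence interval lay within 1 log2 unit of 0 for 69 of 78 subunits in KO, 64 in WT and 75 in the average. A change of 2-fold or more is thus outside the interval of most subunits, and smaller changes could have been missed at this spread.

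By complex, the median for treatment averaged over genotypes was 0.02 for complex I, −0.02 for complex II, −0.04 for complex III, −0.02 for complex IV and 0.07 for complex V. The highest estimate of that average was 0.46 for *Ndufb6* in complex I (SE 0.42), 0.36 for *Atp5g2* in complex V (a gene for the c subunit of the rotor, SE 0.21) and 0.35 for *Cox7a2* in complex IV (SE 0.25). The lowest was −0.33 for *Ndufa5* (SE 0.14), −0.48 for *Atp5s* (SE 0.47) and −0.27 for *Cox6b2* (SE 0.33) in the same complexes. *Atp5s* is named *Dmac2l* by RefSeq and is not a structural subunit of ATP synthase. In complexes II and III the estimates spanned −0.15 (*Sdhb*) to 0.04 (*Sdhc*) and −0.14 (*Uqcr11*) to 0.17 (*Uqcrc1*).

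*Uqcrc1*, a core protein of complex III, had the smallest unadjusted p for IFN-γ in WT. It had 5402, 5738 and 16505 units in treated WT HSCs and 4486, 4412 and 13523 units in naive WT HSCs, where the highest library of each group was R-09. Each treated library was above the naive libraries of its own series, but the groups overlapped. The log2 difference was 0.31 (SE 0.10, limma adjusted p = 0.620). In KO HSCs it had 3968, 12847 and 4727 units with IFN-γ and 13402, 3892 and 4270 units without, and its within-series log2 difference was −0.06 in R-09, 0.28 in R-07 and −0.11 in FL-06.

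*Cox6a1*, a complex IV subunit of the ubiquitous isoform, had 885, 1112 and 5797 units in treated WT HSCs, against 664, 463 and 5782 units in naive WT HSCs. Its log2 difference of 0.56 (SE 0.21, limma adjusted p = 0.630) was 0.84 within FL-06 and 0.0038 within R-09. *Atp5c1*, the γ subunit of the rotor shaft, had 3744, 3722 and 7570 units in treated WT HSCs and 2852, 3030 and 6462 units in naive WT HSCs, a log2 difference of 0.31 (SE 0.11, limma adjusted p = 0.630). *Uqcrfs1*, the Rieske iron-sulfur protein, was the 1 subunit below an unadjusted p of 0.05 in KO HSCs, with 1311, 2530 and 1876 units in treated and 3426, 2236 and 1648 units in naive libraries (log2 difference −0.34, SE 0.15, limma adjusted p = 1.000).

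The catalytic β subunit of ATP synthase, *Atp5b*, stands for genes with no such sign. It had 13607, 31602 and 15606 units in treated KO HSCs and 35623, 13575 and 11400 units in naive KO HSCs. In WT HSCs it had 14662, 13729 and 35828 units with IFN-γ and 12280, 15512 and 31180 units without. Treated and naive libraries overlapped in both genotypes, and within each group the R-09 library was highest.

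Within code series the medians of the 78 subunits for IFN-γ in WT were 0.01 in R-09 and 0.01 in FL-06. In KO they were −0.24 in R-09, 0.19 in R-07 and 0.14 in FL-06, each from 1 treated and 1 naive library. In R-09 only 7 of 78 subunits were above 0 in KO, against 54 of 78 in FL-06. The R-09 and the other series thus had opposite signs in KO, and with 1 library of each kind no spread within a series could be set beside these medians.

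The comparison of KO with WT asked whether loss of *Bst2* goes with another level of these genes. After IFN-γ 0 of 78 subunits passed (limma, adjusted p under 0.05), against 0% of all genes, and 5 (6.41%) were below an unadjusted p of 0.05, beside 2.09% of all genes. In naive HSCs 0 passed, against 0% of all genes, and 4 (5.13%) were below an unadjusted p of 0.05, beside 6.49% of all genes. The median log2 difference was −0.09 after IFN-γ, beside −0.04 for all genes, and −0.08 in naive HSCs, beside 0.07 for all genes. The interval lay within 1 log2 unit of 0 for 65 of 78 subunits in each comparison. Within code series the median after IFN-γ was −0.14 in R-09 and −0.09 in FL-06, and in naive HSCs it was 0.11 in R-09 and −0.11 in FL-06, so the sign in naive HSCs was not the same in both series.

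All 4 subunits of complex II, succinate dehydrogenase, had estimates below 0 in both comparisons, from −0.19 (*Sdhc*) to −0.14 (*Sdha*) after IFN-γ and from −0.36 (*Sdhd*) to −0.11 (*Sdhb*) in naive HSCs, and none passed. Within code series the naive sign was not shared, since 3 of 4 were above 0 in R-09 (median 0.08) and 0 of 4 in FL-06 (median −0.32). After IFN-γ 0 of 4 were above 0 in R-09 (median −0.19) and in FL-06 (median −0.22). *Sdha*, its flavoprotein, had 5767, 8741 and 5428 units in treated KO HSCs, against 6669, 6509 and 9781 units in treated WT HSCs. In naive HSCs it had 9181, 4846 and 5600 units in KO, against 7183, 6775 and 8385 units in WT. The genotypes overlapped in both conditions.

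*Uqcrc1* had the smallest unadjusted p after IFN-γ, with 3968, 12847 and 4727 units in KO and 5402, 5738 and 16505 units in WT (log2 difference −0.37, SE 0.11, limma adjusted p = 1.000). *Ndufv2* (−0.38), *Atp5c1* (−0.28), *Atp5o* (−0.41) and *Atp5k* (0.56) were the others below an unadjusted p of 0.05 there. In naive HSCs they were *Ndufs1* (0.48), *Uqcrfs1* (0.39), *Ndufs7* (−0.43) and *Ndufa7* (−0.51). *Ndufs1*, which carries iron-sulfur clusters of complex I, had 3150, 2287 and 2410 units in naive KO and 1926, 1304 and 2394 units in naive WT HSCs, and its lowest value was in the shallow library WT naive 2.

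The difference of the IFN-γ effects, KO minus WT, was passed by 0 of 78 subunits (limma), against 0% of all genes, with 3 (3.85%, beside 3.39% of all genes) below an unadjusted p of 0.05, namely *Ndufs1*, *Uqcrfs1* and *Atp5c1*. These 3 were also below 0.05 in comparisons above that use some of the same libraries, so the repeats are not independent. Over all 78 subunits the median was 0.04, beside −0.11 for all genes, and the interval lay within 1 log2 unit of 0 for 53 of 78. Within series the median was −0.29 in R-09 and 0.11 in FL-06. The highest estimate, 0.95 (SE 0.52) for *Ndufa1*, an accessory subunit of complex I, and the lowest, −0.63 (SE 0.59) for *Ndufb4c*, both missed the threshold (limma adjusted p = 0.933 for each).

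**Figure D2:**
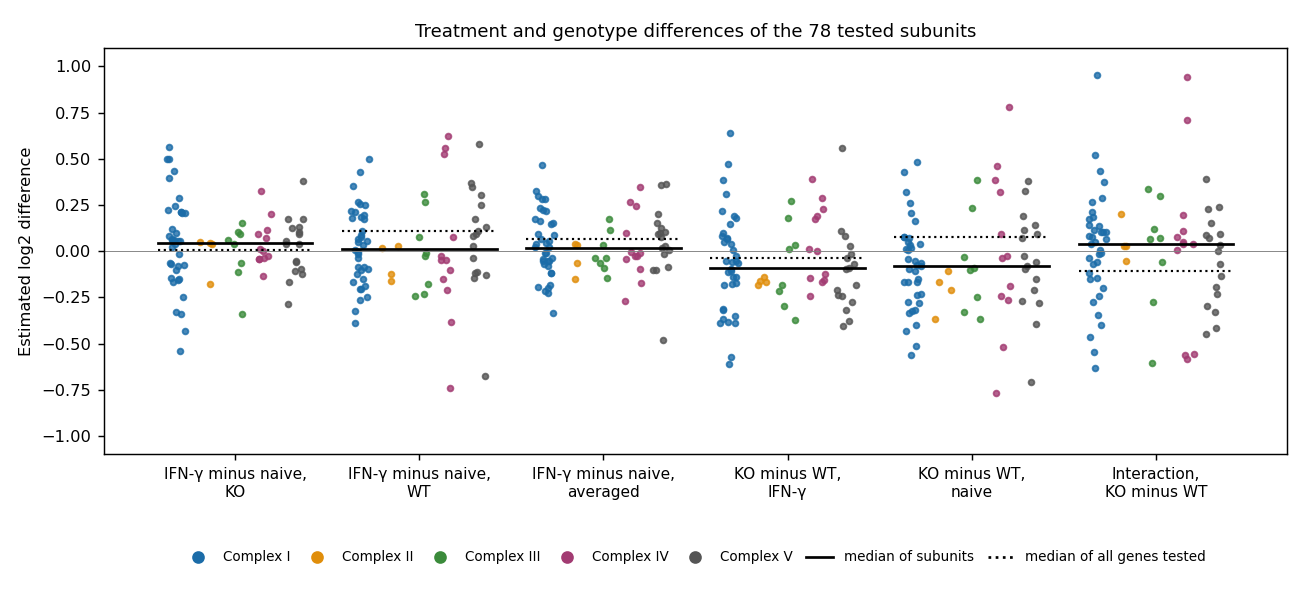
Estimated log2 differences of the 78 tested subunits for IFN-γ minus naive in KO, in WT and averaged, for KO minus WT after IFN-γ and in naive HSCs, and for the interaction, with points coloured by complex. All points lie within 1 log2 unit of 0, solid lines mark the median of the subunits and dotted lines the median of all genes tested.

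The levels of these genes differed far more between code series than between treatments or genotypes. Because R-09 holds 1 library of each group, R-09 minus FL-06 was fitted beside the group means. In R-09, 64 subunits were higher, 6 were lower and 8 did not pass (limma, adjusted p under 0.05). Of all genes tested, 68% passed, 35.6% higher and 32.3% lower. The median log2 difference of the subunits was 1.40, beside 0.23 for all genes. The 4 R-09 libraries all lay above the other 8 for 60 of 78 subunits, which was so for 29.3% of all genes, and all below the other 8 for 2 subunits, which was so for 26% of all genes. Of the 64 higher subunits, 20 were over 4-fold, 32 between 2- and 4-fold and 12 under 2-fold higher.

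In complex I, 31 of 37 subunits were higher and 1 lower, with a median log2 difference of 1.46. *Ndufa4*, since assigned to complex IV, differed most. In R-09 it had 4452, 4821, 4851 and 4938 units, in R-07 851 and 1037 units, and in FL-06 434 to 759 units (median 606). R-09 was thus 8.32-fold higher (log2 difference 3.06, SE 0.18, limma adjusted p = 3.97e-08), with no overlap. *Ndufb2* (7.99-fold) and *Ndufa7* (7.37-fold), accessory subunits, followed.

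Estimates for the catalytic core of complex I ranged widely. *Ndufs7*, next to the site of ubiquinone reduction, had 5423 to 7146 units in R-09, 1319 and 1552 units in R-07 and 1123 to 1981 units in FL-06 (4.31-fold, limma adjusted p = 1.36e-07). *Ndufs8*, another iron-sulfur protein, was 4.88-fold higher, and *Ndufv1*, which binds NADH, was 2.05-fold higher. *Ndufs1* was 1.28-fold higher, a call that was lost in 10 of 18 alternatives. *Ndufb10* varied least of the complex I subunits over the 12 libraries (SD 0.18 log2), at 2502 to 2996 units in R-09, 2044 and 2192 in R-07 and 2083 to 2350 in FL-06.

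All 4 complex II subunits were higher in R-09, and the membrane anchor *Sdhd* and the iron-sulfur subunit *Sdhb* more than the other two. *Sdhd* had 5895 to 7089 units in R-09, 1400 and 1413 units in R-07 and 1074 to 1833 units in FL-06, a 4.69-fold difference (limma adjusted p = 3.27e-08). *Sdhb* was 3.28-fold higher. *Sdhc*, the other anchor, was 1.56-fold and *Sdha* 1.43-fold higher (limma adjusted p = 0.00177 and 0.000243).

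In complex III, 7 of 8 subunits were higher and *Uqcrb*, which binds near the ubiquinone site, was lower. *Uqcrc1* had 12847 to 16505 units in R-09, 3892 and 4727 units in R-07 and 3968 to 5738 units in FL-06 (3.08-fold, limma adjusted p = 1.15e-08). *Uqcr11* was 4.18-fold and *Uqcrfs1* 2.01-fold higher. *Uqcrb* had 2195, 2287, 2472 and 3169 units in R-09, 864 and 942 units in R-07 and 2742 to 3932 units in FL-06. Its R-09 value was 0.719 of that in FL-06 (limma adjusted p = 0.00582), and the call was lost under quantile normalization.

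In complex IV, 8 of 12 subunits were higher, 1 was lower and 3 did not pass. *Cox6a1* had 5725, 5782, 5797 and 6854 units in R-09, 1444 and 1509 units in R-07 and 463 to 1112 units (median 855) in FL-06 (7.57-fold, limma adjusted p = 3.44e-08). *Cox7a2* (6.73-fold), *Cox6b1* (6.24-fold), *Cox5a* (5.18-fold), *Cox8a* (3.55-fold) and *Cox4i1* (2.78-fold) were also higher. *Cox6c*, a single-span subunit of the same enzyme, had 2502, 3053, 3194 and 3210 units in R-09, 3445 and 4305 units in R-07 and 4800 to 6225 units in FL-06. All 4 R-09 libraries were below the other 8 for it (0.539-fold, limma adjusted p = 5.16e-05). *Cox5b*, *Cox7b* and *Cox7a2l*, a factor of supercomplexes, did not pass, with intervals of −0.16 to 0.39, −0.39 to 0.17 and −0.12 to 0.69.

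In complex V, 14 of 17 subunits were higher and 3 lower. The 3 genes for the c subunit of the rotor, *Atp5g1*, *Atp5g2* and *Atp5g3*, were 6.66-, 4.56- and 5.34-fold higher. *Atp5g1* had 6684 to 7406 units in R-09, 944 and 1202 units in R-07 and 787 to 1453 units in FL-06. In the F1 head, *Atp5b* had 31180 to 35828 units in R-09, 13575 and 15606 units in R-07 and 11400 to 15512 units in FL-06 (2.51-fold), whereas the α subunit *Atp5a1* was 1.43-fold higher, at 20866 to 23506, 13074 and 13846, and 14658 to 16685 units in the same order of series. *Atp5c1* (γ, 2.18-fold), *Atp5d* (δ, 3.99-fold) and *Atp5e* (ε, 3.96-fold) of the central stalk were higher too.

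*Atp5mpl*, a small membrane protein of ATP synthase, had 1580, 1636, 1778 and 1831 units in R-09, 1265 and 2360 units in R-07 and 5914 to 7357 units (median 7041) in FL-06. R-09 was 0.253 of FL-06 (log2 difference −1.99, SE 0.15, limma adjusted p = 4.79e-07), and the R-09 and R-07 libraries all lay below those of FL-06. *Atp5h*, subunit d of the peripheral stalk, had 3947 to 4832 units in R-09, 2387 and 2399 units in R-07 and 5435 to 8005 units in FL-06 (0.717-fold, limma adjusted p = 0.000999, not called under quantile normalization). *Atp5k*, subunit e, had 817 to 901 units in R-09, 502 and 524 units in R-07 and 881 to 1776 units in FL-06 (0.725-fold, limma adjusted p = 0.0342), a call lost in 7 of 18 alternatives. In a count with the R-07 libraries left out, chosen after seeing the data, 4 subunits had all R-09 libraries below the rest, *Ndufb4c*, *Cox6c*, *Atp5h* and *Atp5mpl*.

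*Ndufb4c* was the lowest subunit gene in R-09. It had 59.3, 105, 149 and 189 units there, 560 and 803 units in R-07 and 881 to 1909 units in FL-06 (0.0875-fold, log2 difference −3.51, SE 0.33, limma adjusted p = 2.69e-06). RefSeq lists it as protein coding, and the GENCODE annotation (M21) as a processed pseudogene with at least 95% identity to *Ndufb4*. *Ndufb4*, an accessory subunit of complex I, was 3.32-fold higher in R-09, at 1308 to 1834, 372 and 530, and 339 to 659 units in R-09, R-07 and FL-06. Reads of this pair could have been split in the authors' counting, so both values are uncertain.

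Near-identical copies were counted for all subunits as other GENCODE genes matching at least 50% of the transcript at 95% identity or more. A single transcript stood for each gene, the coding transcript of median length where there was any. It had 4371 bases for *Ndufb2* and 4660 for *Atp5g1*, so shorter copies of these 2 genes could be missed. Of the 10 tested subunits with an estimate below 0 in R-09, 5 had such a copy, *Ndufb4c*, *Ndufs5*, *Uqcrb*, *Atp5h* and *Atp5k*. Of the 68 above 0, 7 had one, *Ndufb11*, *Ndufs3*, *Ndufs6*, *Cox7c*, *Atp5g2*, *Atp5l* and *Atp5o*. *Ndufb4* was not counted among these, since the 390 bases of *Ndufb4c* cannot cover 50% of its 971 bases. That pair was thus counted only on the side below 0. *Atp5mpl* and *Cox6c*, the next lowest after *Ndufb4c*, had none. The part of read assignment in these differences was not tested.

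**Figure D3:**
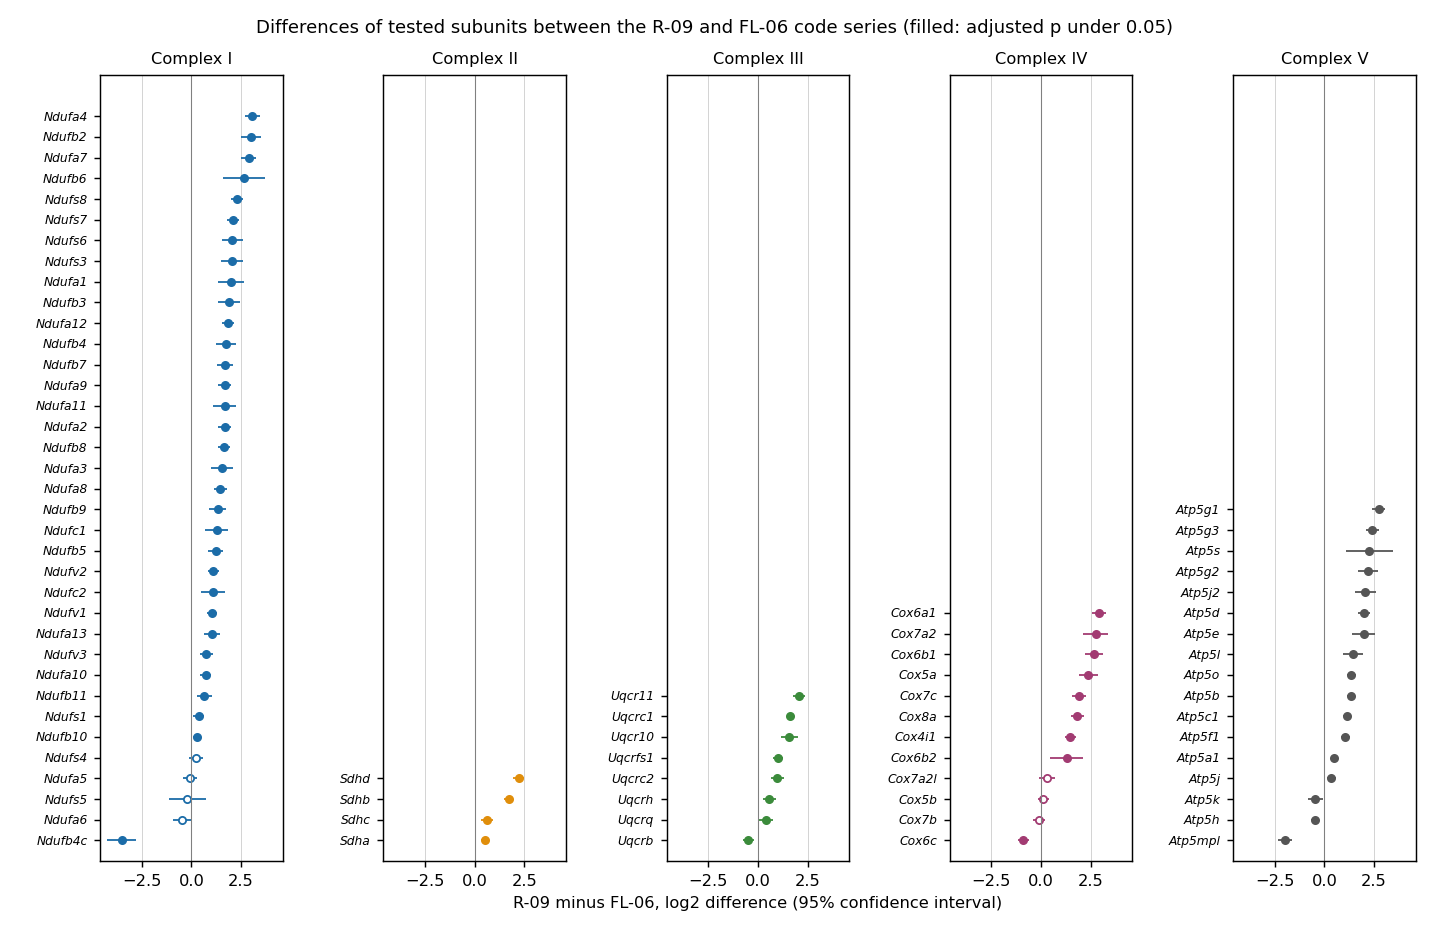
R-09 minus FL-06 log2 differences of the tested subunits, other than 1 of complex I that is not reported here, with their 95% confidence intervals, by complex and in order of size, with filled points for adjusted p under 0.05. In each complex other than II, most subunits lie right of 0 and 1 to 3 called subunits lie left of it.

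**Figure D4:**
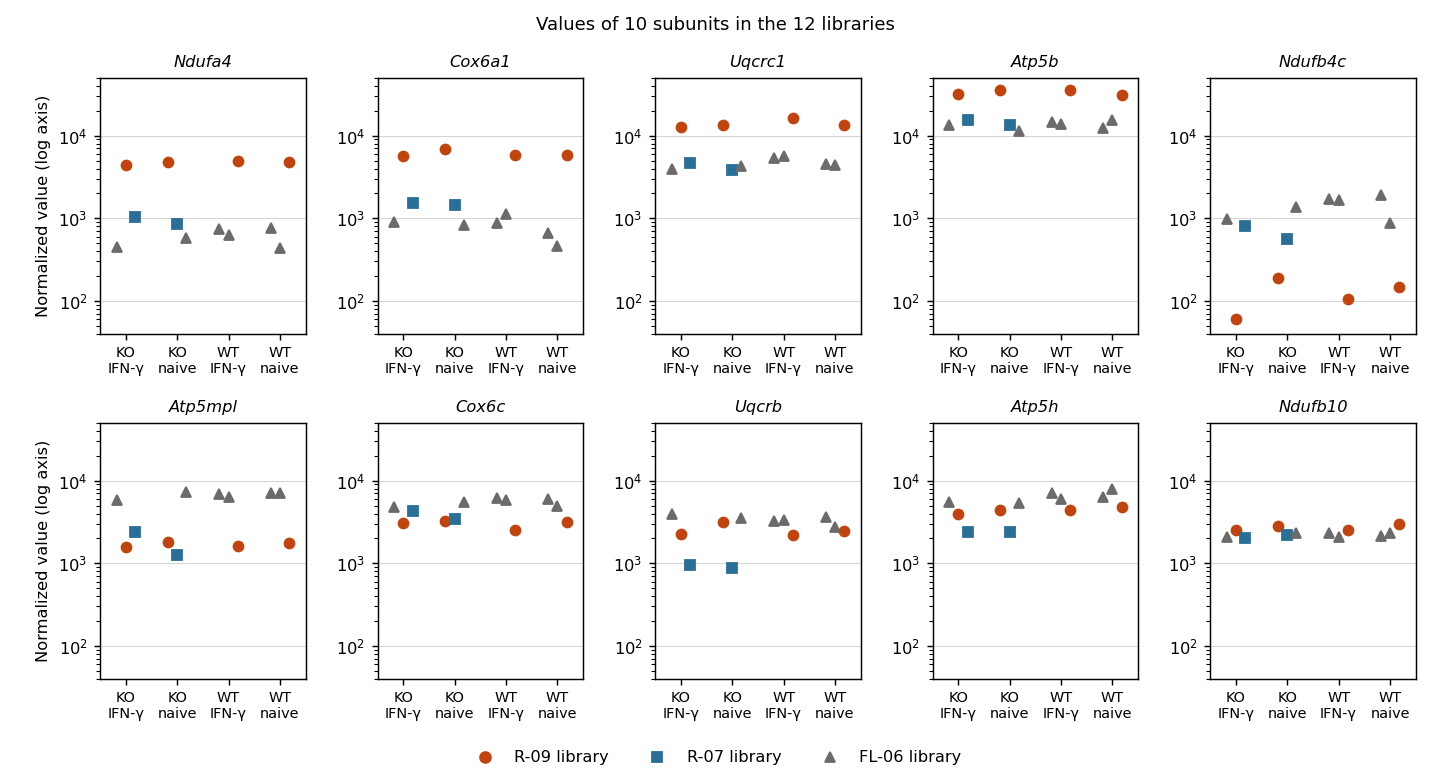
Normalized values, on a log axis, of 10 subunits in each library by group, with symbols for the code series. *Ndufa4*, *Cox6a1*, *Uqcrc1* and *Atp5b* are highest in the R-09 libraries of all 4 groups, *Ndufb4c* and *Cox6c* are lowest there, *Uqcrb* and *Atp5h* are lowest in R-07, and *Ndufb10* stays between 2044 and 2996 units.

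R-07 and FL-06 differed in fewer subunits. Of 78, 8 passed (limma), beside 3.57% of all genes. Among the subunits 1 was higher (0.536% of all genes) and 7 were lower (3.03% of all genes), and the median log2 difference was 0.04, beside 0.10 for all genes. The lower ones were *Uqcrb* (−2.05), *Atp5mpl* (−1.95), *Atp5k* (−1.44), *Atp5h* (−1.24), *Ndufa5* (−1.02), *Ndufv3* (−0.97) and *Atp5j* (−0.95), and *Atp5d* was higher (0.81). *Atp5mpl*, *Atp5k*, *Atp5h* and *Atp5j* belong to complex V. Of the 17 subunits of that complex, 11 had estimates above 0 in R-07 (median log2 difference 0.18), so the complex was not lower as a whole. The *Uqcrb* values of 864 and 942 units in R-07 lay below all 10 others. *Uqcrb*, *Atp5k* and *Atp5h* had near-identical copies as counted above, and *Atp5mpl*, *Ndufa5*, *Ndufv3*, *Atp5j* and *Atp5d* had none. The part of read assignment in the R-07 differences was not tested. R-07 holds KO libraries only, 2 in number, and each of these 8 calls was lost under at least 1 of 19 alternatives. Leaving out single libraries gave 16 calls without WT naive 2, 5 without WT IFN-γ 1, 4 without each of KO naive 3, KO IFN-γ 1 and KO IFN-γ 3, and 1 without KO naive 2. Both code-series differences are taken from the same FL-06 libraries, so they are not independent of each other.

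Other genes of the respiratory system, in lists chosen with earlier results known, were read in the same fit. Beside these and the lists below, 35.6% of all genes tested were higher in R-09 and 32.3% lower. No such share was computed for genes that met the minimum both within R-09 and outside it. Of 9 tested subunits and carriers outside the name rule, 7 were higher in R-09 and 1 was lower. *Cyc1*, cytochrome c1 of complex III, was 5.72-fold higher, *Cycs*, cytochrome c, 1.56-fold and *Ndufab1*, the acyl carrier subunit, 1.36-fold higher, whereas *Atpif1*, the inhibitor of ATP synthase, was at 0.281 of its FL-06 level. Of the 40 assembly factors that met the minimum both within R-09 and outside it, 26 were higher and 2 lower (median log2 difference 1.01). Carriers of ATP and metabolites had 9 higher and 1 lower of 10 (median 1.29), with *Slc25a5*, an ADP/ATP carrier, 2.97-fold higher. Mitochondrial import genes had 11 higher and 3 lower of 15 (1.56), mitochondrial ribosomal proteins 57 and 6 of 78 (1.01), defence against reactive oxygen 7 and 0 of 9 (1.33) and the TCA cycle with pyruvate dehydrogenase 8 and 3 of 17 (0.39).

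Lists outside mitochondria differed as well. Glycolysis genes had 14 higher and 4 lower of 19 (median log2 difference 1.23), with *Gapdh* 3.36-fold higher, while the 80 cytosolic ribosomal proteins that met the minimum on both sides had 12 higher and 55 lower (−0.99). Regulators of mitochondrial biogenesis had 1 higher and 8 lower of 15 (−0.71). Among the factors whose motifs were read in the promoters, *Yy1* (log2 difference −2.86) and *Gabpa* (−1.78) were lower in R-09 and *Nrf1* (0.10, limma adjusted p = 0.696) did not pass. *Hcfc1*, a cofactor of such promoters, was lower (−2.79) and *Tfam*, which packages mitochondrial DNA, was lower (−0.71).

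Markers of other cells moved with the same series. Of 10 tested neutrophil markers, 9 met the minimum of 100 units in 3 libraries both within R-09 and outside it, and all 9 were higher in R-09. The other, *Mmp8*, met it only through R-09. The 10 summed to 98265 to 209278 units there, 10558 and 12884 units in R-07 and 8885 to 15532 units in FL-06. Among markers of monocytes, of B and plasma cells and of T and NK cells, and the gate-excluded genes *Cd34* and *Cd48*, a single gene of each set met the minimum on both sides, and each of the 4 (*Ly6c2*, *Cd79b*, *Nkg7* and *Cd34*) was higher in R-09. The others tested did not meet it outside R-09, so their direction was not counted. The gate genes summed to 3506 to 4096 units in R-09, 765 and 940 units in R-07 and 513 to 839 units in FL-06. The monocyte list summed to 2190 to 4431 units in R-09, 206 and 373 units in R-07 and 85.9 to 303 units in FL-06. Erythroid markers were higher in 5 of 5, summing to 19333 to 36440 units, 19424 and 21821 units, and 13953 to 17844 units in the same order. Of 8 tested HSC markers 2 were higher and 5 lower, although their summed level overlapped, at 20815 to 26381, 20367 and 22840, and 18353 to 21851 units. *Cd3e*, a defining T cell gene, was at 0 in all 12 libraries, and *Ms4a1* (B cells) was at 0 in 8. The roughly estimated depth was 8.77, 9.52, 9.73 and 14.7 M reads in the R-09 libraries. It was 0.495 M reads in WT naive 2 and 10.1 to 52.1 M reads in the other 7 libraries. The number of genes above 0 did not follow this order. It was 13294 to 14115 in R-09, 10567 in WT naive 2 and 12395 to 14640 in the other 7. The part of these marker and depth differences in the subunit levels was not tested.

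**Figure D5:**
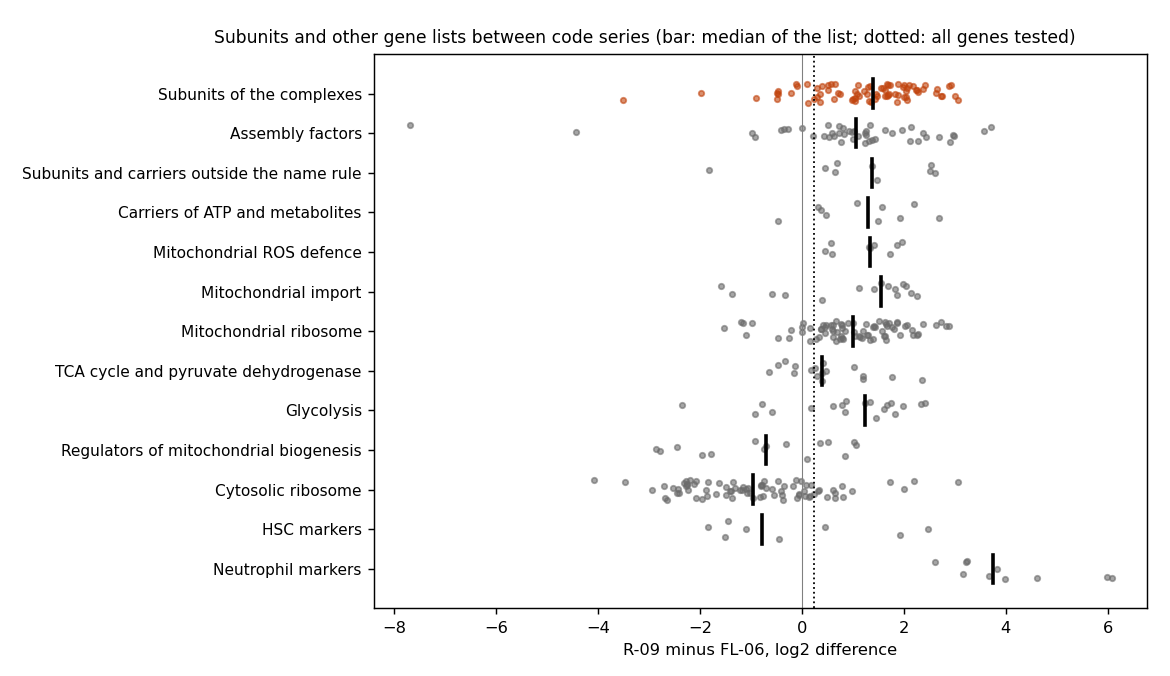
R-09 minus FL-06 log2 differences of the subunits and of 12 other gene lists, 1 point per tested gene (filter on all 12 libraries), with a bar at each median and a dotted line at the median of all genes tested. The subunits have a median of 1.40, those of all other mitochondrial lists than the regulators lie right of the dotted line, the medians of cytosolic ribosomal proteins, HSC markers and regulators of biogenesis lie left of 0, and that of neutrophil markers lies farthest right of the lists drawn.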

How the data were processed

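RNA-seq of 12 sorted HSC libraries was read from 1 deposited table of 24972 rows, of which 26 with date-like names were left out. The authors deposited normalized read counts, a signal that is never negative and is not whole reads (2.34 to 4.64% of a library's values were whole multiples of its commonest low step, tolerance 0.01), so no count model was run. The submitters' processing notes name STAR and DESeq with no version, and no source used here gives the genome build, annotation or strand handling. Groups came from the sample labels and code series from the library codes in the titles. Members and lists were chosen with earlier results of these data known.

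Log2(value + 1) of 10816 genes with at least 100 units in at least 3 libraries was fitted with limma 3.58.1 (R 4.3.3), moderated along the mean-variance trend, with 4 group means and the code series, 6 residual and 5.02 prior degrees of freedom, and Benjamini-Hochberg adjustment over all genes at 0.05. The fit was tested on simulated data. Medians over lists carry no test. Values of 1 complex I subunit are not reported here, although it is included in all counts and medians. Named were catalytic subunits, tissue isoforms with their partners, subunits past the threshold, the extreme estimates and SDs of each complex, untested subunits, and from each other list genes past the threshold or that of highest mean. Between code series, where many genes passed, other lists are given by counts with examples. Alternatives were a pseudocount of 10, no filter, quantile normalization, no code series, a replicate block, array weights, no variance trend, no R-09 libraries, single series and each library left out. A value of 3 steps was 102 units for WT naive 2 and between 1.02 and 5.22 for other libraries, a floor for counting error only. Motifs were searched as exact letters on both strands, and copies with BLAST against GENCODE M21 transcripts.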

Additional observations from a re-analysis of the deposited data

How the results depend on the processing

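In all 6 treatment and genotype comparisons 0 subunits passed under every alternative run. In the fit as reported, 1 of all 10816 genes passed for IFN-γ in WT, 7 averaged over genotypes and 0 in each other comparison. A count of 0 thus does not set the subunits apart from all genes. Of the 70 calls between R-09 and FL-06, 62 were kept under all 18 alternatives and none changed sign. The other 8 (*Ndufb10*, *Ndufs1*, *Uqcrb*, *Uqcrq*, *Cox6b2*, *Atp5h*, *Atp5j* and *Atp5k*) were lost under at least 1. Quantile normalization gave a median of 1.57 in place of 1.40. For R-07 minus FL-06, 8 calls became 5 with the replicate block added, 16 with array weights, 1 without the variance trend and 1 to 16 with single libraries left out (16 without WT naive 2, 1 without KO naive 2), and the median ranged from −0.093 (without KO IFN-γ 3) to 0.17 (0.04 in the fit as reported). Leaving out single libraries moved the naive KO minus WT median between −0.21 and −0.014, lowest without KO naive 1. Within R-09 alone the medians were −0.24 for IFN-γ in KO, −0.12 averaged, 0.11 for naive KO minus WT and −0.29 for the interaction, and within R-07 0.19 for IFN-γ in KO. The cause was not tested. With the untested subunits included, complex IV averaged 7.45 in place of 10.7 log2. Without the R-07 libraries, an alternative added after seeing the data, 4 in place of 2 subunits had all R-09 libraries lowest. Of 18 same-numbered pairs, 8 correlated above 0.1 (−0.88 to 0.83), with the code series not removed. Every negative pair joined an R-09 library with a library of another series. This check thus could not show whether replicate numbers pair the libraries. The replicate block left 68 calls for R-09. Depth limits WT naive 2 most.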
